A study of Rattus norvegicus with 24 samples.

Results

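Retinal microvessels (RMVs) were compared with the retinal tissue (RT) they were taken from, to see which transcripts mark the vessels and how much RNA of the retina stayed in the isolate. The comparison was made up of 12 of the 24 arrays of the series, 6 titled as retinal microvessels and 6 titled as retinal tissue, over the 18166 genes with a transcript cluster of their own. The rats of all groups were Wistar males, 12 weeks old, for which no treatment is named. The retinae of a single rat (frozen eyes, in the wording of the methods) were cut into cryosections. For RT, sections were kept whole, in a number that the labels and the methods give differently, and for RMVs the remaining sections were homogenized in the cold, centrifuged and caught on a nylon mesh. Brain microvessels (BMVs) and brain tissue (BT) were prepared in the same manner from a brain hemisphere, with 6 arrays each. RMVs are thus a filtered isolate of several cell types and not a sorted population, and any eye tissue lying next to the retina could enter both groups. Total RNA (1 ng a sample) was amplified for a whole-transcript array, Affymetrix Rat Gene 2.0 ST, and marked with biotin.

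The vessels of the inner retina form the inner blood-retinal barrier. Their endothelial cells are joined by tight junctions, carry nutrients by dedicated transporters, pump out foreign compounds, and share a basement membrane with pericytes, while end feet of Müller glia and astrocytes cover the outer face. Photoreceptors, which make up most retinal cells in the rat, lie in the outer retina and have no vessels among them, and their phototransduction genes are scarcely used elsewhere in the body.

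Signals are given as deposited, on a log2 scale, so that a difference of 1 is 2-fold. The median signal over all clusters of an array was 6.76 to 6.83 in RMVs and 6.10 to 6.22 in RT, and the median gene was 0.33 higher in RMVs than in RT. After quantile normalization of all arrays this median was -0.15, and with each array centred on its own median it was -0.32. A gene was called where the groups differed by 1 or more on this scale, in either direction, with an adjusted p under 0.05 (limma, Benjamini-Hochberg over all genes). This rule called 1873 genes (10.3%) higher in RMVs and 172 (0.947%) lower, each against RT. The split was 933 and 917 after quantile normalization and 683 and 1928 with centring, so each list of genes is read against the median of all genes. The labels call the arrays of a group biological replicates, and their number limits the precision. P-values and standard errors rest on a spread per gene that is shared by the 4 groups, so brain arrays enter those of RMVs against RT. The highest signal of an array was 14.27 to 14.35 in RMVs and 14.08 to 14.16 in RT, and whether probes near this top were saturated cannot be read from the deposited values. Signals of different clusters depend on their probes, so that ranks by signal are no ranks of transcript abundance. Endothelial genes averaged 9.78 to 10.30 on RMV arrays and 6.89 to 7.11 on RT arrays, which fits the labels of both groups. The replicate 5 arrays of both groups had more pigment epithelium signal than the rest, and without them 1943 genes were higher and 197 lower. In such bulk samples, fewer cells of a type and less RNA per cell cannot be told apart.

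Vessel transcripts were strongly enriched in RMVs, while the largest falls were smaller than the largest rises. The largest rise was 4.95 and the largest fall was -1.65 on the log2 scale, which left 31.8% of the RT signal. After quantile normalization the largest fall was -2.22, and with centring it was -2.30. Of all genes, 466 rose by more than 2 (4-fold) and 0 fell by more than 2 at the deposited scale, against 14 that fell so far after quantile normalization and 29 with centring. For BMVs against BT the same test called 2969 genes (16.3%) higher and 1903 (10.5%) lower, 627 of which fell by more than 2, and the largest fall of -4.32 left 5.01% of the BT signal. Genes called lower in RMVs kept a median of 44.9% of their RT signal, with a median signal of 8.45 in RMVs and 9.65 in RT. This share lies near the upper limit that the 2-fold rule itself sets. Of these 172 genes, 130 lay above the median of all genes in RMVs and 25 among the top 10% of genes. The scatter of signals by gene shows the vessel genes above the line of equality and most rod and all neuronal genes below it, within 2 log2 units.

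**Figure D1:**
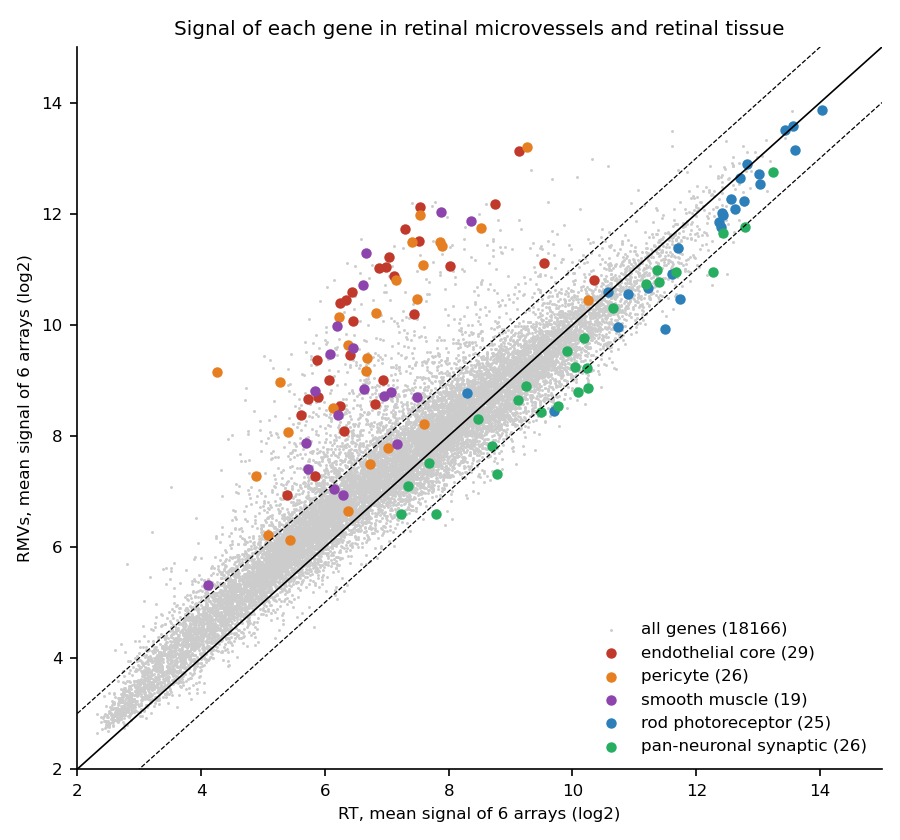
Mean signal (log2, 6 arrays) of each of 18166 genes in RMVs (vertical axis) against RT (horizontal axis), with the solid line at equality and dashed lines at a difference of 1. The 29 endothelial, 26 pericyte and 19 smooth muscle genes lie above the line, while the 25 rod genes and 26 neuronal genes lie near or below it and stay at high signal in RMVs.

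Of the 100 genes of highest mean signal in RMVs, 67 were also among the 100 of RT (67.0% of either list), and single pairs of an RMV and an RT array shared 57 to 76 genes. BMVs and BT shared 46 of their 100. Of the top 100 of RMVs, 20 were called higher than in RT, 0 were called lower and 80 were neither. The 24 that RMVs shared with RT but not with the top 100 of BMVs were led by rod genes (Gnat1, Prph2, Sag, Rom1 and Gngt1), and also held the synaptic genes Snap25 and Slc17a7. The 33 that RMVs held beyond RT included all of the 20 called genes, among them the glucose transporter gene Slc2a1, the pericyte gene Rgs5, the tight junction gene Cldn5 and the thyroid hormone transporter gene Slco1c1.

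The share of genes called differed by signal. Of the 3226 genes with a mean signal of 7 to 8 over all arrays, 13.5% were called higher in RMVs and 0.93% called lower, with a median change of 0.30. Among the 296 genes at 11 to 12, 6.76% were higher and 2.7% lower, with a median of -0.09. After quantile normalization the medians of these tiers were -0.23 and -0.13. Of the 102 genes at 12 or above, 6 were called higher and 0 lower.

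Rod genes were among the genes of highest signal in RMVs. The list of 25 measured rod genes had a median signal of 11.98 in RMVs and 12.41 in RT, and 23 of them lay among the top 10% of genes of RMVs. Of the 25, 0 were called higher and 3 lower than in RT, where 10.3% and 0.947% of all genes were. The median change was -0.44, or 73.6% of the RT signal, and -0.77 when set against the median gene. After quantile normalization 3 were again called lower, but with each array centred on its median 14 were, at a median of 47.1% of RT. In brain, where there are no rods, the list stood at 6.06 in BMVs and 5.38 in BT. The mean over the list was 11.39 to 11.75 on RMV arrays and 12.01 to 12.15 on RT arrays, without overlap, and 5.82 to 5.94 on BMV arrays.

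Some rod genes had a deposited signal in RMVs close to that in RT, on a scale where the median gene was 0.33 higher in RMVs. Gnat1, the α subunit of rod transducin, had a lowest, median and highest signal of 13.66, 13.90 and 13.97 on RMV arrays, against 13.99, 14.01 and 14.12 on RT arrays, a change of -0.16 (standard error, SE, 0.11, adjusted p = 0.19 from limma). Every RMV array lay below every RT array, but the change did not pass the test. That test shares its SE with the brain arrays, and the SD of Gnat1 was 0.37 in BMVs and 0.12 in BT, against 0.11 in RMVs and 0.05 in RT. Prph2, a tetraspanin that shapes the disc rim, had signals of 13.38, 13.63 and 13.68 in RMVs and of 13.51, 13.57 and 13.61 in RT, and the change was 0.02 (SE 0.06). Sag, the rod arrestin that ends the light response, stood at 13.33, 13.49 and 13.72 in RMVs and at 13.35, 13.43 and 13.51 in RT, a change of 0.08 (SE 0.07). For both genes the groups overlapped. Gngt1, the γ subunit of rod transducin, likewise overlapped, with 12.66, 12.90 and 13.11 in RMVs and 12.70, 12.81 and 12.94 in RT.

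The promoters of Prph2 and Gngt1 are shown because both genes held their tissue signal in the vessel isolate on the deposited scale. Both also hold a short motif found in several promoters of rod genes. They run from 250 bases before to 50 bases after the annotated start (RefSeq, build GRCr8), at chr9:21579025-21579324 on the minus strand for Prph2 and at chr4:32960695-32960994 on the plus strand for Gngt1. Capitals mark TAATCC or its reverse complement GGATTA, the core letters bound by homeodomain factors of the CRX and OTX family, searched on both strands.
Prph2: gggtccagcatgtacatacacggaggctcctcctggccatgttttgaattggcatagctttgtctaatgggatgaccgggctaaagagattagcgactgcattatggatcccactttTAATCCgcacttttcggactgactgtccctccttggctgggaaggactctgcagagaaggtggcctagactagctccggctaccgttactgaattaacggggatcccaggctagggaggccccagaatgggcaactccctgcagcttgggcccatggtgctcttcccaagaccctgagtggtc
Gngt1: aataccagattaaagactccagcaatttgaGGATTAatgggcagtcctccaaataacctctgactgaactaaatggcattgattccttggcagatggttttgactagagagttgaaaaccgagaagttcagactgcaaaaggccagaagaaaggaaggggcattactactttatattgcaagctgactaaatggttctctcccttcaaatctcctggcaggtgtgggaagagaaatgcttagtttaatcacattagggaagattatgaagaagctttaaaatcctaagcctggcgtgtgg
The match begins 133 bases before the start in Prph2 and 220 bases before it in Gngt1. Of the rod genes, 21 had a promoter sequence and 8 of these (38.1%) held the motif, against 909 of 14564 promoters (6.24%) of all genes measured. Among vessel genes it was found in 1 of 17 endothelial promoters (5.88%) and in 2 of 17 of the pericyte list. A match describes these letters in this window only. Crx, a transcription factor of photoreceptors that binds such a motif, had a signal of 10.46 to 10.74 in RMVs and 10.33 to 10.96 in RT, with a change of 0.03 (SE 0.11).

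Other rod genes were below the tissue level to different degrees. Rom1, the disc partner of Prph2, had signals of 12.95, 13.17 and 13.28 in RMVs and of 13.55, 13.60 and 13.62 in RT, a change of -0.44 (SE 0.08) without overlap. Both catalytic subunits of the rod phosphodiesterase were alike in this, Pde6a at 70.8% and Pde6b at 68.3% of the RT signal. Slc24a1, the sodium, calcium and potassium exchanger of the rod outer segment, fell furthest of the list. Its signals were 9.67, 9.97 and 10.16 in RMVs and 11.32, 11.45 and 11.70 in RT, and the fold change was -1.56 (SE 0.11, adjusted p = 2.1e-12 from limma). Guca1b, a calcium sensor that acts on guanylate cyclase, fell by 1.26, with 10.24, 10.49 and 10.60 in RMVs and 11.53, 11.71 and 11.91 in RT. Rdh12, a retinol dehydrogenase of photoreceptor inner segments, also fell by 1.26, with 8.11, 8.44 and 8.72 in RMVs and 9.54, 9.63 and 10.12 in RT. RMV arrays lay below all RT arrays for each of these. Nrl, the transcription factor that sets rod fate, had the highest change of the list at 0.49 (SE 0.10), with 8.44, 8.84 and 9.06 in RMVs and 8.07, 8.26 and 8.57 in RT, and its groups overlapped.

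Cones and bipolar cells followed the same pattern at lower signals. Of 11 cone genes 0 were called in either direction, with a median of 75.0% of the RT signal. Opn1mw, the middle wavelength cone opsin, had signals of 8.88, 9.27 and 9.51 in RMVs and of 9.57, 9.74 and 10.01 in RT, a change of -0.54 (SE 0.11), and the groups did not overlap. Arr3, the cone arrestin, had a change of -0.21 and overlapped between groups. Of 13 bipolar genes 1 was called lower and 0 higher, at a median of 74.2% of RT. Grm6, the glutamate receptor of ON bipolar cells, had signals of 9.21, 9.58 and 9.79 in RMVs and 9.37, 9.62 and 9.79 in RT, a change of -0.08 (SE 0.09). Trpm1, the channel that this receptor closes, had a change of -0.76. Pcp2, a regulator of G proteins in ON bipolar cells, was the called gene, at -1.05, but at -0.98 without RMV replicate 6 it was no longer called. After quantile normalization 2 cone and 2 bipolar genes were called lower, and with centring 6 and 7.

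Set against the vessels of the brain, these genes stood out in RMVs. Of the 25 rod, 11 cone and 13 bipolar genes, 48 of 49 were called higher in RMVs than in BMVs, where 1040 of all genes (5.72%) were higher and 953 (5.25%) lower. The exception was Cnga3, a cone channel subunit, with 4.89 in RMVs, 4.83 in RT and 3.94 in BMVs (log2, means of 6 arrays). A wider group of 97 genes was picked by tissue signal alone, at 8 or more in RT, under 6 in BT and at least 3 apart. As RT entered this choice, its values are a description. In RMVs they kept 33.8% to 177% of the RT signal, with a median of 73.3%, and Slc24a1 was the lowest. Of the 97, 0 were called higher and 10 lower than in RT, and 15 had a signal above RT. After quantile normalization 23 of them were called lower, and with centring 57, at a median of 46.9% of RT. The chart of rod, cone and bipolar genes gives each in the 4 groups.

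**Figure D2:**
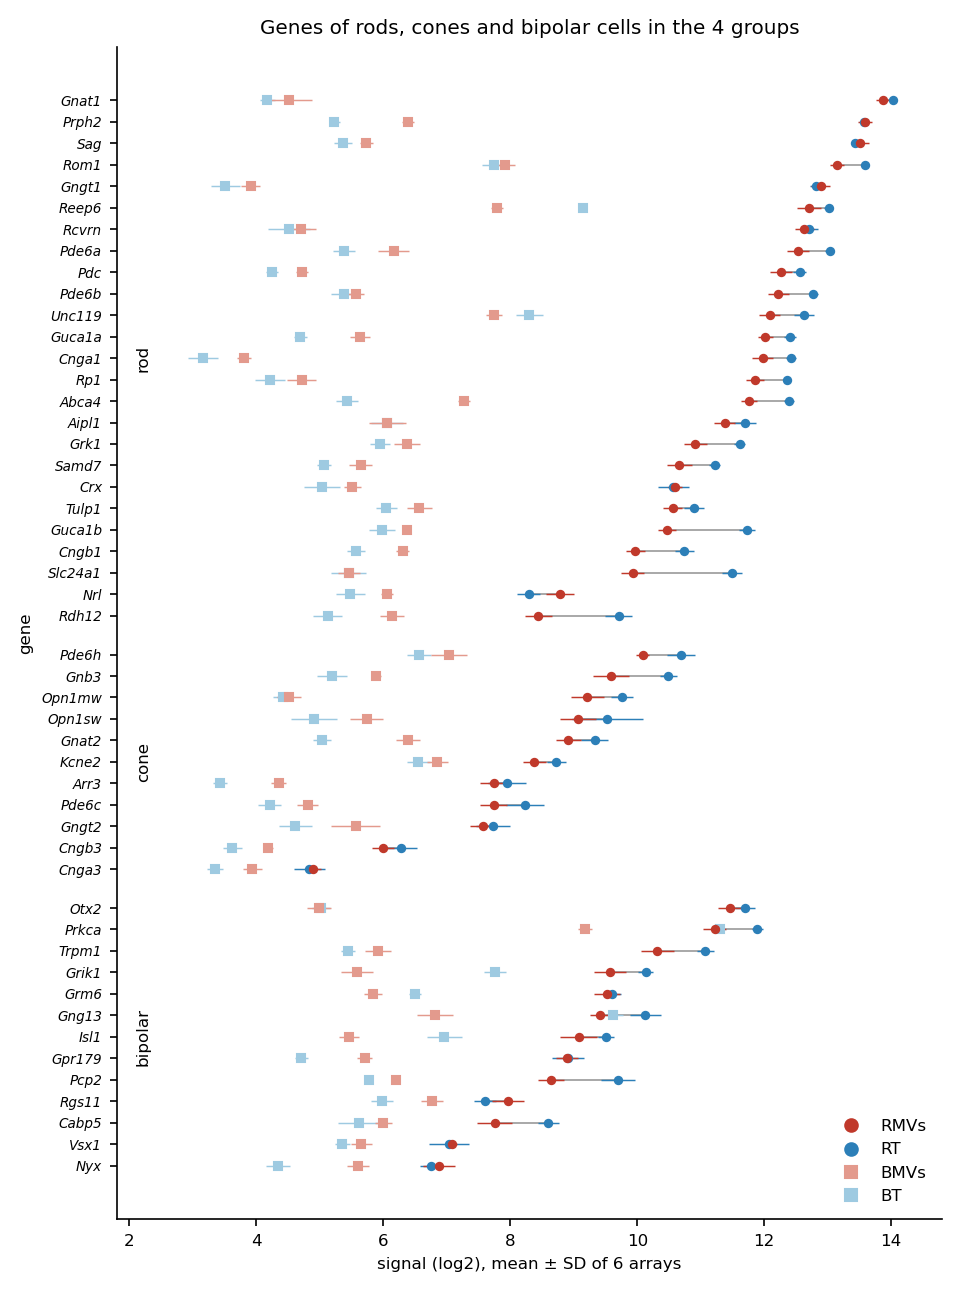
Mean signal (log2, horizontal axis, bars ± SD of 6 arrays) of 25 rod, 11 cone and 13 bipolar genes (vertical axis) in RMVs and RT (circles) and in BMVs and BT (squares). RMVs lie within 1.56 of RT for every gene, as with Slc24a1 at 9.93 in RMVs and 11.49 in RT, while most genes are far lower in both brain groups.

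Of 14 amacrine genes 2 were called lower and 0 higher, with a median change of -0.50. After quantile normalization 7 were called lower, at a median of 49.5% of RT, and with centring 9. Gad2, which makes the transmitter GABA, had signals of 7.52, 7.87 and 8.35 in RMVs against 8.80, 9.04 and 9.17 in RT, a fall of 1.12. Calb2, the calcium buffer calretinin, fell by 1.11, with 10.50, 10.83 and 10.90 in RMVs and 11.75, 11.90 and 12.06 in RT. Of 15 ganglion cell genes 5 were lower and 2 higher (9 lower with centring). The 3 neurofilament genes, which build the axon skeleton of these cells, all fell. Nefl had signals of 8.07, 8.14 and 8.29 in RMVs and 9.58, 9.75 and 9.97 in RT (-1.61, SE 0.07), while Nefm fell by 1.42 and Nefh by 1.24. Slc17a6, a vesicular glutamate transporter, and Stmn2, a growth protein of axons, fell by 1.35 and 1.28. The members that rose were Rbpms, by 2.27, and Ebf1, by 1.91. The RNA-binding protein of the first is also made by smooth muscle and the transcription factor of the second by pericytes. In BMVs against BT, Rbpms rose by 3.45 and Ebf1 by 4.28.

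Genes of Müller glia, whose end feet lie on the vessels, did not rise together. Of 15 Müller genes 3 fell and 2 rose, with a median change of -0.57 or 67.4% of RT. After quantile normalization 6 were lower and 2 higher, and with centring 9 were lower and 1 higher, at a median of 43.2% of RT. Aqp4, the water channel of glial end feet, had signals of 8.13, 8.68 and 8.91 in RMVs against 9.93, 10.09 and 10.21 in RT and fell by 1.43 (SE 0.11). Slc1a3, which clears glutamate, fell by 1.35, and Rlbp1, which binds retinal in the visual cycle, by 1.16. All 6 RMV arrays lay below all RT arrays for these genes. The genes that rose, Vim by 1.38 and Id3 by 1.91, are also expressed by vascular cells. Of 9 astrocyte genes 2 rose and 1 fell (1 and 2 after quantile normalization, 1 and 5 with centring), and Gfap, the intermediate filament of astrocytes, had overlapping signals of 6.55, 7.37 and 7.83 in RMVs and 7.22, 7.89 and 8.96 in RT.

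**Figure D3:**
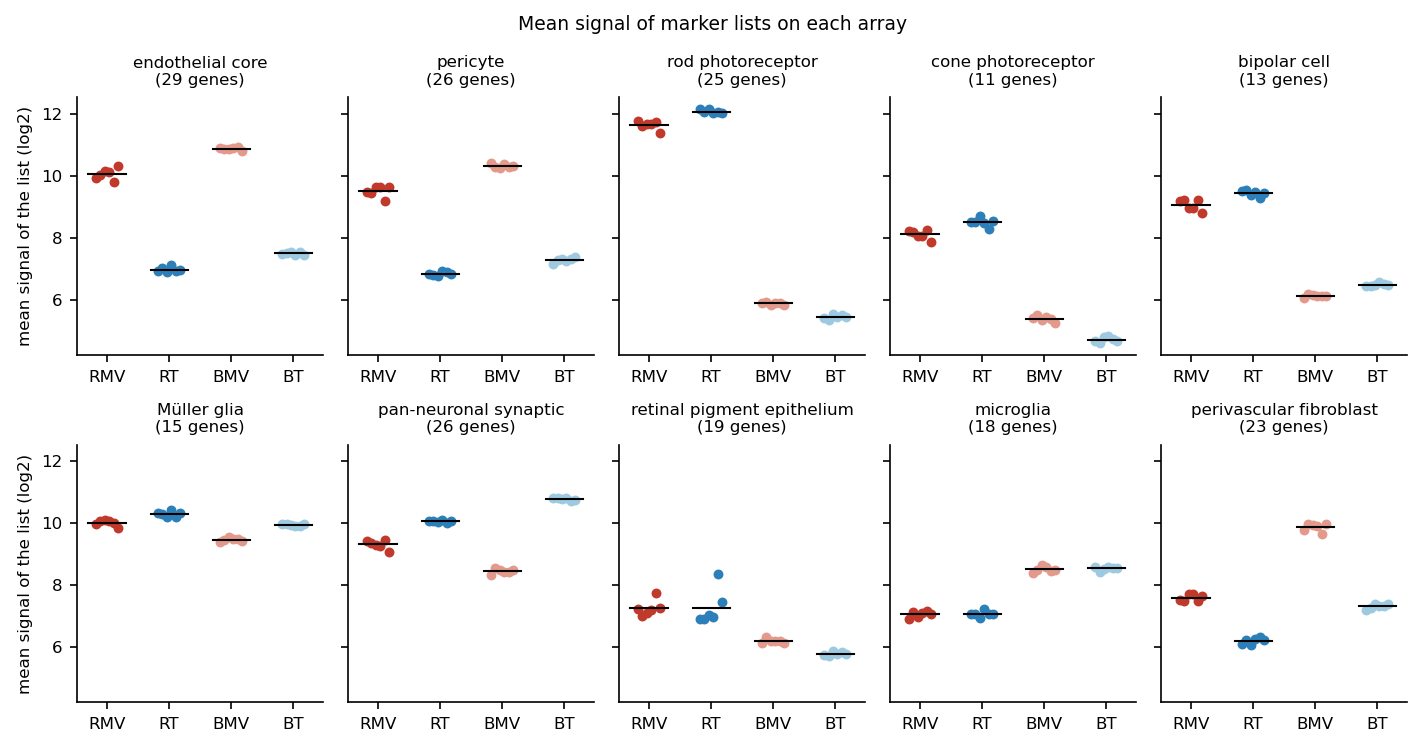
Mean signal (log2, vertical axis) of 10 gene lists on each array of RMVs, RT, BMVs and BT, with a line at the group mean. Rod genes lie at 11.39 to 11.75 in RMVs and 12.01 to 12.15 in RT, while endothelial genes lie at 9.78 to 10.30 in RMVs and 6.89 to 7.11 in RT.

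Genes used by neurons of both organs allowed the retinal isolate to be set against the brain isolate. Of a list of 26, most of them of the synaptic vesicle and the cytoskeleton, 9 were lower and 0 higher in RMVs than in RT, with a median of 62.3% of the RT signal. After quantile normalization 12 were lower, and with centring 23, at 39.9% of RT. A member that is not shared between the organs is Cplx4, a complexin of retinal ribbon synapses, with mean signals of 10.74 in RMVs, 11.19 in RT, 5.49 in BMVs and 5.39 in BT. In BMVs 22 of the 26 were lower than in BT and 0 higher, with a median of 16.5% of the BT signal. A second list of 21 genes of brain neurons had 6 lower and 1 higher in RMVs at a median of 65.4% of RT, against 20 lower and 0 higher in BMVs at 13.5% of BT. In RMVs 12 of these were lower after quantile normalization, at 48.8% of RT, and 13 with centring, at 41.8%. The difference between the changes, RMVs minus RT less BMVs minus BT, was tested in the same model. It was called positive for 1893 genes (10.4%) and negative for 935 (5.15%), and for 42 of these 47 neuronal genes it was positive and for 0 negative. After quantile normalization it was positive for 39 of the 47. The second list started lower in retina, with a median signal of 8.26 in RT and 10.51 in BT. For the first list these medians were 10.06 and 10.79. Whether the lower start limited the fall in retina was not tested.

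Snap25, which drives fusion of synaptic vesicles, had signals of 12.61, 12.77 and 12.87 in RMVs and of 13.18, 13.25 and 13.31 in RT. The change was -0.49 (SE 0.06) in retina and -1.72 in brain. Syp, a protein of the vesicle membrane, fell by 1.04 in RMVs, with 11.34, 11.82 and 11.90 against 12.73, 12.79 and 12.89 in RT, and without RMV replicate 6 it was no longer called at -0.96. In BMVs it fell by 3.03. Slc17a7, a vesicular glutamate transporter used by photoreceptors and bipolar cells as well as by cortical neurons, had signals of 11.72, 12.21 and 12.34 in RMVs and 12.71, 12.76 and 12.86 in RT, a change of -0.61, and fell by 2.79 in BMVs. RMV arrays of all 3 genes lay below RT arrays without overlap. The largest falls in RMVs among these 47 genes were those of Gabra3, a GABA receptor subunit, by 1.62 and of Htr2c, a serotonin receptor, by 1.55, and in BMVs these fell by 3.50 and 4.32. Stmn3, a regulator of microtubules, had a change of -0.18 in RMVs and of -3.53 in BMVs, a difference of 3.35 (SE 0.13, adjusted p = 5.5e-17 from limma).

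Nrgn, a calmodulin-binding protein of postsynaptic spines, went against the list. It had signals of 7.19, 7.49 and 7.75 in RMVs against 5.55, 5.66 and 5.85 in RT, and rose by 1.77 (SE 0.08), whereas in brain it fell by 2.08, with a mean of 9.34 in BMVs and 11.41 in BT. Its RMV arrays lay above all RT arrays. In all, 10 genes were called in opposite directions in the retina and the brain. The call of Itpr1, a calcium channel of internal stores, was lost without RMV replicate 3 (0.95), RT replicate 1 (0.99) or RT replicate 5 (0.99), and those of Itpr1, Tiam2, Adhfe1 and Sfxn4 after quantile normalization. The 8 that rose in RMVs and fell in BMVs were Nrgn, Mal, Serpine2, Ccn3, Tiam2, Sfxn4, Adhfe1 and Itpr1. The 2 that fell in RMVs and rose in BMVs were Rdh12 and Chrnb3. In brain the changes of Rdh12 (1.005), Tiam2 (-1.005) and Serpine2 (-1.03) lay just past the threshold. Whether the brain calls of these 10 genes hold under other scalings was not tested. Mal, a myelin and membrane raft protein, rose by 1.73 in RMVs and fell by 1.41 in BMVs. Serpine2, an inhibitor of thrombin, rose by 2.16 (mean signals of 9.59 in RMVs and 7.43 in RT) and fell by 1.03 in brain (10.16 in BMVs and 11.19 in BT). Chrnb3, a nicotinic receptor subunit, fell by 1.30 (mean signals of 8.26 in RMVs and 9.55 in RT) and rose by 1.24 in brain (5.77 in BMVs and 4.53 in BT).

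**Figure D4:**
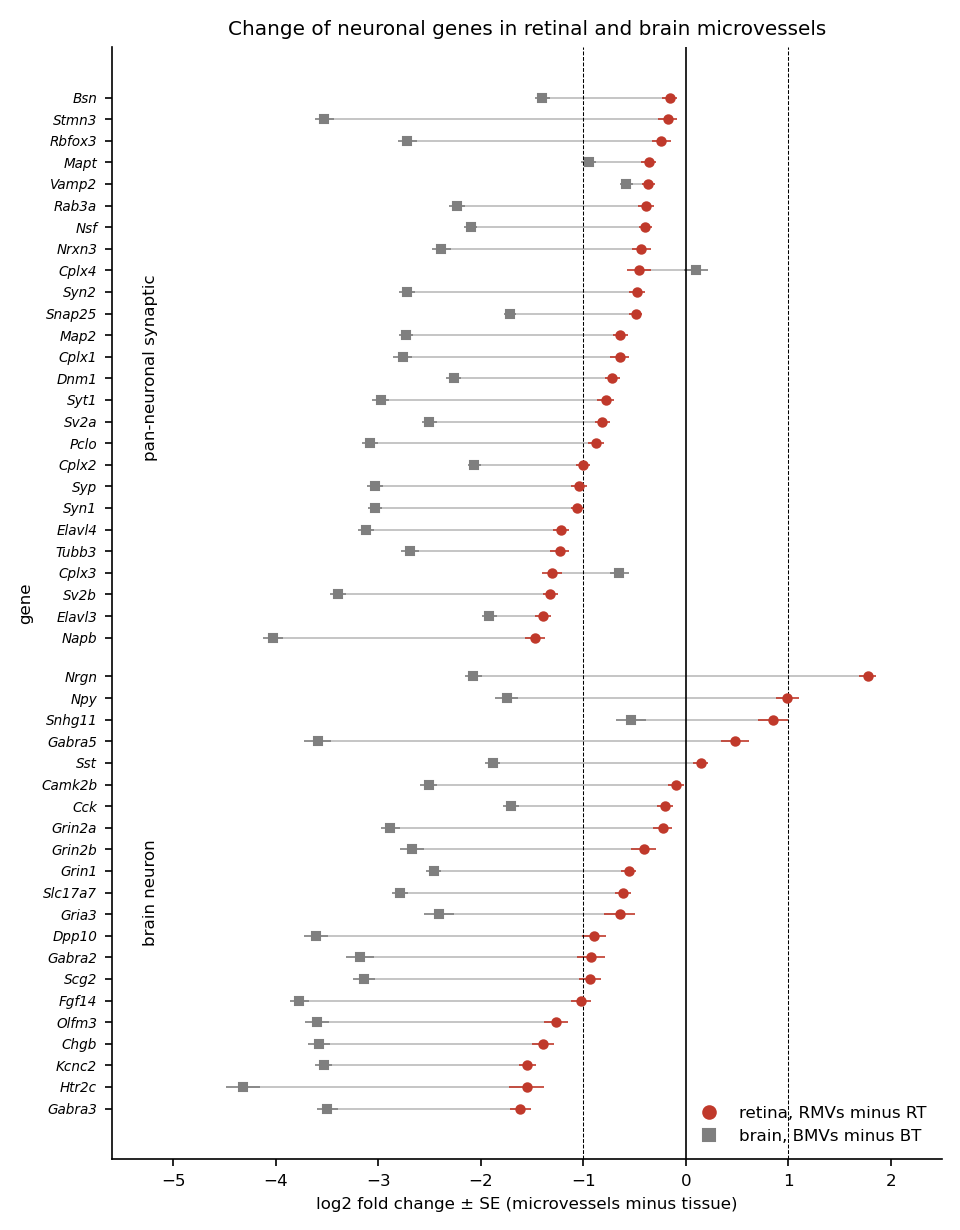
Change of 26 neuronal and synaptic genes and 21 genes of brain neurons (vertical axis) as log2 fold change with SE (horizontal axis), for RMVs minus RT (circles) and BMVs minus BT (squares), with dashed lines at -1 and 1. Retinal changes lie between -1.62 and 1.77, and brain changes reach -4.32.

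Endothelial genes rose almost throughout. Of 29 measured, 28 were higher in RMVs and 0 lower, with a median change of 3.05 (2.72 when set against the median gene), and 26 were called after quantile normalization. Their median signal was 10.38 in RMVs and 6.80 in RT. Cldn5, the main claudin of barrier endothelium, had signals of 12.78, 13.20 and 13.29 in RMVs against 8.86, 9.17 and 9.49 in RT, a change of 3.99 (SE 0.09, adjusted p = 2.8e-22 from limma). Vwf, the clotting protein stored in endothelial cells, had 11.55, 11.68 and 11.89 in RMVs and 6.97, 7.28 and 7.58 in RT and rose by 4.43. For both genes all RMV arrays lay far above all RT arrays. Cd34, a surface sialomucin of endothelium, rose by 4.11 in RMVs but by 1.44 in BMVs, a difference of 2.67 (SE 0.17). The BT mean was 9.87, against 6.33 in RT. The single endothelial gene not called was Ece1, which activates endothelin.

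In 44 genes the isolate brought a transcript from the lower part of the signal range in RT to the top 10% of genes in RMVs. They were chosen by a mean at or below the median of all genes in RT and at or above 9.78 in RMVs among genes called higher, so their rise is a description. It ran from 3.13 to 4.95 with a median of 4.01, and the lowest RT mean was 5.74. Members included Lef1, the nuclear effector of Wnt signalling, with signals of 10.72, 11.06 and 11.41 in RMVs and 6.30, 6.49 and 6.62 in RT, and Gpr4, a proton-sensing receptor, with 9.86, 10.11 and 10.28 in RMVs and 5.55, 5.65 and 6.21 in RT. Enpp2, which makes lysophosphatidic acid, had signals of 10.31, 10.60 and 10.87 in RMVs and 6.54, 6.86 and 7.74 in RT. In brain Enpp2 did not pass the test, with a mean of 11.54 in BMVs and 11.09 in BT, and the difference in change was 3.19 (SE 0.20). Or51e1, of the olfactory receptor family, whose members share sequence, was also among them, at 10.19, 10.37 and 10.70 in RMVs and 5.20, 6.00 and 6.84 in RT. Of 1344 olfactory and vomeronasal receptor genes as a whole, 103 (7.66%) were higher and 1 (0.0744%) lower. These shares lay below the 10.3% and 0.947% of all genes. After quantile normalization 6 were higher and 9 lower. Their median signals were 4.36 in RMVs and 3.88 in RT.

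Junction and barrier genes were split. Of 34, 17 rose and 1 fell in RMVs with a median change of 0.93, whereas 24 rose and 1 fell in BMVs. After quantile normalization 14 rose and 1 fell in RMVs, and with centring 12 and 1. Ocln, the tight junction protein occludin, had signals of 9.07, 9.84 and 10.02 in RMVs and 6.43, 6.53 and 7.06 in RT and rose by 3.04. Mfsd2a, a lipid transporter that restrains transcytosis, had 10.41, 11.04 and 11.29 in RMVs and 6.64, 7.02 and 7.08 in RT and rose by 4.03, more than in BMVs by 1.37 (SE 0.20). Cldn12 fell by 1.08, with 8.85, 9.24 and 9.42 in RMVs and 10.14, 10.23 and 10.42 in RT. Plvap, the diaphragm protein of fenestrated vessels, overlapped between groups with 6.41, 6.44 and 6.57 in RMVs and 6.12, 6.25 and 6.46 in RT.

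Of 29 transporter genes of the barrier 17 rose and 0 fell in RMVs with a median change of 1.34, against 22 and 1 in BMVs. In RMVs 16 rose and 2 fell after quantile normalization, and 13 and 2 with centring. Slc2a1, the glucose transporter GLUT1, had signals of 13.29, 13.49 and 13.66 in RMVs and 11.47, 11.63 and 11.69 in RT. It rose by 1.88 (SE 0.06), and all RMV arrays lay above RT. Abcb1a, the efflux pump P-glycoprotein, rose by 4.10, with 10.07, 10.75 and 10.97 in RMVs and 6.20, 6.62 and 6.80 in RT, and Abcg2, a second efflux pump, rose by 4.43. Slc40a1, the iron exporter ferroportin, rose by 4.36, Slco1a4, an organic anion transporter, by 4.29, Slc38a5, a glutamine transporter, by 3.81, and Slc7a1, which carries arginine, by 3.51. None of these overlapped between RMVs and RT.

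Some transporter and vesicle genes had a high signal in RMVs without any call against RT, where the signal was at a like level. Slc38a3, a glutamine transporter, had signals of 12.36, 12.51 and 12.64 in RMVs and 12.55, 12.59 and 12.64 in RT, a change of -0.08 (SE 0.06). In brain it rose by 2.43, with a mean of 12.85 in BMVs and 10.42 in BT, and the difference in change was -2.52 (SE 0.08). Slc6a6, the taurine transporter, was alike, with 11.71, 11.84 and 11.90 in RMVs and 11.86, 11.91 and 11.96 in RT, and a difference of -3.05 (SE 0.09). Both overlapped between the retinal groups. Cav1, the coat protein of caveolae, had signals of 9.96, 10.05 and 10.29 in RMVs and 10.02, 10.14 and 10.38 in RT, against a rise of 3.16 in BMVs (difference -3.23, SE 0.10), and its partner Cav2 had overlapping groups too. Cox4i2, a cytochrome oxidase subunit used as a pericyte marker, averaged 10.44 in RMVs, 10.24 in RT, 10.83 in BMVs and 7.32 in BT. Egflam, a matrix protein of photoreceptor synapses, averaged 9.63 in RMVs, 9.32 in RT, 9.79 in BMVs and 6.20 in BT. The test between RMVs and BMVs called neither of these genes, nor Slc38a3, Slc6a6 or Cav1. Igf1r, the receptor of insulin-like growth factor 1, and Tfrc, the transferrin receptor, were called lower in RMVs than in BMVs, with means of 10.51 in RMVs and 11.59 in BMVs and of 8.82 in RMVs and 10.26 in BMVs. Over the barrier and transporter lists, the difference in change was negative for 9 of 34 and 6 of 29 genes and positive for 1 and 2. Over all genes it was negative for 5.15% and positive for 10.4%.

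Genes of mural cells, the contractile cells of the vessel wall, rose in RMVs. Of 26 pericyte genes 20 rose and 0 fell, with a median change of 3.09, and of 19 smooth muscle genes 16 rose and 0 fell, with a median of 2.18. Rgs5, a brake on G protein signalling in pericytes, had signals of 12.83, 13.24 and 13.39 in RMVs and 8.95, 9.25 and 9.78 in RT, a rise of 3.93 (SE 0.12). Pdgfrb, the receptor that recruits pericytes, rose by 3.52 with 11.01, 11.47 and 11.62 in RMVs and 7.67, 7.90 and 8.12 in RT. Tagln, an actin-binding protein of smooth muscle, rose by 4.16, and Kcnmb1, a subunit of the potassium channel that relaxes vessels, by 4.64. RMV arrays lay above all RT arrays for each. Tpm1, a tropomyosin, rose by 1.20 in RMVs and had a change of -0.13 in BMVs (difference 1.33, SE 0.11), and its call in RMVs was lost after quantile normalization.

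Of 22 basement membrane genes 16 rose and 0 fell with a median change of 1.72, while 12 rose after quantile normalization and 11 with centring. Nid1, which links laminin to collagen, had signals of 10.93, 11.55 and 11.69 in RMVs and 7.92, 8.01 and 8.26 in RT and rose by 3.39, and Lama4, a laminin chain of endothelium, rose by 2.23. Among 42 ligands of angiogenesis and Wnt signalling 21 rose and 0 fell, at a median of 0.98, but 13 rose and 2 fell after quantile normalization. Pdgfb, the endothelial signal for pericytes, rose by 2.73 with 8.62, 8.89 and 9.32 in RMVs and 6.09, 6.19 and 6.36 in RT, and Angpt2, which loosens vessels, rose by 1.36, a call lost after quantile normalization. Vegfa, made by glia and neurons in the retina, had overlapping signals of 8.64, 9.01 and 9.19 in RMVs and 8.13, 8.56 and 8.94 in RT.

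Genes of perivascular fibroblasts and macrophages were lower in RMVs than in BMVs. Of 23 fibroblast genes 11 rose and 0 fell in RMVs, against 18 and 1 in BMVs, and 17 were called lower in RMVs than in BMVs and 0 higher. Against RT, 8 rose and 2 fell in RMVs after quantile normalization, and likewise with centring. Lum, a collagen-binding proteoglycan, had overlapping signals of 3.64 to 4.19 in RMVs and 3.51 to 3.93 in RT, and a mean of 10.08 in BMVs. Dcn, another, had 5.20, 6.03 and 6.71 in RMVs and 4.10, 4.50 and 4.87 in RT, a rise that lost its call after quantile normalization, and a mean of 12.73 in BMVs. Both lay below the median of all genes in RMVs. Other members of the list were high in RMVs. Mgp, an inhibitor of calcification that mural cells also make, had 11.99, 12.21 and 12.30 in RMVs and 7.03, 7.34 and 7.96 in RT. Which cells the RNA of such members came from was not tested. Of 13 macrophage genes 5 rose and 0 fell in RMVs, against 13 and 0 in BMVs, and 12 were lower in RMVs than in BMVs. Mrc1, the mannose receptor of perivascular macrophages, had 5.09, 5.20 and 5.27 in RMVs and 4.63, 4.88 and 5.07 in RT, and a mean of 9.15 in BMVs. The members that rose were Dab2, Pf4, Stab1, Cd68 and Siglec1, of which Dab2 (by 3.94) is an endocytic adaptor that endothelial cells also make and Siglec1 lost its call after quantile normalization. Of 18 microglial genes 0 were called in either direction, at a median change of -0.02, but 4 were called lower after quantile normalization and 4 with centring, and 13 were lower in RMVs than in BMVs.

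Blood transcripts were present in the retinal isolate. Hbb-b1, a β-globin, had signals of 11.05, 11.58 and 11.89 in RMVs and 7.68, 8.14 and 8.83 in RT, and rose by 3.29 (SE 0.19). In brain its change was 0.40, with means of 10.32 in BMVs and 9.92 in BT, a difference of 2.89 (SE 0.27). The α-globins Hba-a3 and Hba-a1 rose by 2.37 and 1.97, and globin genes share sequence, so that these clusters may not be independent. Of 13 red cell genes 5 rose and 0 fell, and 3 rose and 1 fell after quantile normalization. Of 27 leukocyte and platelet genes 9 rose, among them Pf4 of platelets by 2.61 and S100a8 of neutrophils by 2.19, and 4 rose after quantile normalization. The part of blood in other changes was not tested.

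Genes of interferon response and antigen presentation rose in 27 of 39 cases and fell in 0, with a median change of 1.53, and 18 rose after quantile normalization. B2m, the light chain of class I antigens, had signals of 12.66, 12.88 and 13.07 in RMVs and 10.24, 10.63 and 10.79 in RT, a rise of 2.28. Ifitm2, an antiviral membrane protein, rose by 4.65 with 10.59, 10.73 and 11.06 in RMVs and 6.00, 6.12 and 6.40 in RT. Of 35 immediate early and stress genes 11 rose and 0 fell, and 6 rose after quantile normalization, while 3 rose and 3 fell with centring. Klf4, a flow-regulated factor of endothelium, had 9.52, 10.03 and 10.54 in RMVs and 6.80, 6.92 and 7.18 in RT and rose by 3.13, and Klf2, its relative, rose by 2.26. Fos, which is induced within minutes by handling or activity, overlapped with 5.99, 6.23 and 6.69 in RMVs and 5.83, 6.15 and 6.49 in RT, and Junb overlapped too. Egr1, also induced within minutes, rose by 1.22, with 8.32, 8.91 and 9.20 in RMVs and 7.03, 7.58 and 8.31 in RT, and its call was lost after quantile normalization. Of 24 complement and coagulation genes 12 rose and 0 fell, against 10 and 2 after quantile normalization, and Thbd, the thrombin receptor of endothelium, rose by 4.01 and Plat, tissue plasminogen activator, by 2.88.

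Of 16 glycolysis genes 4 fell and 1 rose in RMVs, where 0.947% of all genes were called lower, and 8 fell with centring. Pfkm, a phosphofructokinase, had signals of 8.56, 8.69 and 8.83 in RMVs and 9.80, 9.97 and 10.10 in RT and fell by 1.29. Aldoc, the aldolase of neurons and glia, fell by 1.11, Pfkl by 1.15 and Hk2, a hexokinase of photoreceptors, by 1.03, but Hk2 was not called without RMV replicate 3 (-0.99), RMV replicate 6 (-0.98) or RT replicate 1 (just under the threshold). Pdk4, which limits entry of pyruvate into mitochondria, rose by 2.45 with 7.24, 7.55 and 8.27 in RMVs and 4.72, 5.09 and 5.54 in RT. Of 64 genes of oxidative phosphorylation 0 were called, at a median change of -0.12, and 7 were lower with centring. Of 55 cytosolic ribosomal protein genes 1 rose and 0 fell, and 0 were called after quantile normalization. The relative median of the ribosomal genes was -0.05 on the deposited scale and 0.27 after quantile normalization.

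Genes of tissue next to the neural retina differed between arrays. Of 19 genes of the retinal pigment epithelium 1 rose, the phagocytosis receptor gene Mertk, which vessels and glia also express, and 0 fell, with a median change of -0.11. After quantile normalization 2 were lower, and with centring 5 were lower and 0 higher. Rpe65, the isomerase of the visual cycle, had signals of 6.95, 6.56, 6.80, 6.83, 8.54 and 7.11 in RMV replicates 1 to 6, against 6.64, 6.46, 6.79, 6.60, 9.57 and 7.37 in RT replicates 1 to 6. Replicate 5 was the highest of both groups, for Rpe65 as for Rgr, Ttr, Lrat, Tyrp1 and Slc16a8. Without the replicate 5 arrays of both groups the list had a median change of 0.08. Cryba1, a lens crystallin that the pigment epithelium also makes, was highest in replicate 4 of both groups, at 7.84 in RMVs and 7.79 in RT, where the other arrays had 5.49 to 6.98 in RMVs and 4.90 to 5.77 in RT. Its change of 0.68 was called, at 1.10, without RT replicate 4. Of 14 lens genes 0 were called, and of 9 genes of cornea and conjunctiva 0. Of 12 genes of sclera and choroid stroma 9 rose and 0 fell, and 5 after quantile normalization, in a list that shares members with the fibroblast list. Of 12 oligodendrocyte genes, which label a cell scarcely found in the rat retina, 1 rose, and Mog, a protein of the myelin surface, overlapped with 5.74, 5.90 and 6.03 in RMVs and 5.91, 6.04 and 6.25 in RT.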

How the data were processed

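RNA of RMVs, RT, BMVs and BT was measured on 24 arrays, 6 per group, which were assigned to groups and replicate numbers by their labels. The deposited values are log2 signals that the authors made with Affymetrix Expression Console 4.0. How they were normalized and summarized, and with which annotation build, is not given in the sources used here. The values were used as deposited, without further normalization, and checked to be uncentred per gene. Of 36685 clusters, 19086 are listed with a gene, 18511 with a single symbol (18394 matched through Entrez identifiers), 575 with several and 17599 with none. For 291 genes with several clusters the cluster of highest mean was kept, which left out 345 clusters and gave 18166 genes.

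The 4 groups entered a single limma 3.58.1 model in R 4.3.3 without a replicate block (prior degrees of freedom 5.73), with two-sided tests and Benjamini-Hochberg adjustment over all genes. The script was tested on simulated data. The members of the lists, the lists and the tests were chosen with earlier results of these data known, so that lists are given by counts and medians without a test. Genes open to naming were the 15 of highest RMV signal, and the 15 and 10 of highest signal among those called higher and lower. So were genes called higher with RT at or below the median and RMVs among the top 10%. Genes of rank 11 to 25 by change were added. From each list the 4 highest, the 2 largest changes in each direction and called members that go against the list were taken. These are counted in the summaries, the most telling ones are printed, and other genes were named for their role after their values were seen. Alternatives were quantile normalization, centring of arrays, filters on low signal, the mean of clusters, other model settings, other thresholds and leaving out arrays. Genes without a cluster of their own were not analysed here.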

Additional observations from a re-analysis of the deposited data

Results flagged for a closer look

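Some list means had an array that stood apart from the other 5 of its group. For genes of the retinal pigment epithelium, RMV replicate 5 had a mean of 7.75, where the others reached at most 7.25. For lens genes, RT replicate 4 had 5.48, against 5.10 to 5.19 on the others. For skeletal muscle genes, RT replicate 3 had 6.03, against 5.94 to 5.97, and for perivascular macrophage genes RT replicate 2 had 5.75, against 5.54 to 5.60. For immediate early and stress genes, RT replicate 6 was the lowest at 7.21, against 7.30 to 7.35. Of 74 list means examined, 5 had such an array, and chance gives about 1 in 20.

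The change of RMVs against RT differed from that of BMVs against BT, by the test of the difference in limma, in several lists. It was higher in retina for 21 of 26 pan-neuronal genes, for 21 of 21 genes of brain neurons and for 11 of 12 oligodendrocyte genes. It was lower in retina for 9 of 34 barrier genes, 6 of 29 transporter genes, 12 of 23 fibroblast genes and 9 of 13 macrophage genes. Over all genes, 10.4% had a higher and 5.15% a lower change in retina. Genes of brain neurons started lower in retina, at a median of 8.26 in RT and 10.51 in BT, as did oligodendrocyte genes, at 6.17 and 10.49. Whether the lower start of both lists limited their fall in retina was not tested. Among single genes, the difference was 3.85 for Nrgn, 3.13 for Mal, 2.89 for Hbb-b1 and 2.67 for Cd34, and it was -3.23 for Cav1, -3.05 for Slc6a6 and -2.52 for Slc38a3. For 10 genes the calls were opposite in retina and brain on the deposited scale, some of them near the threshold.

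Clusters outside the genes tested also differed between RMVs and RT. Of 18174 clusters without a single symbol, 3773 (20.8%) were higher and 92 (0.506%) lower in RMVs in a fit over all clusters. Their median signal was 6.18 in RMVs and 5.47 in RT, and their median change was 0.545. Over all clusters 15.5% were higher and 0.722% lower, at a median change of 0.44. These clusters were counted on the deposited scale only, so how far the counts depend on scaling was not tested.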

How the results depend on the processing

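The count of genes higher in RMVs than in RT was 1873 and that of genes lower in RMVs than in RT was 172 as reported. There were 933 higher and 917 lower after quantile normalization, and 683 higher and 1928 lower with each array centred on its median. Without genes below the median signal 992 were higher, but among far fewer genes tested, so this count cannot be set directly against 1873. At a fold of 1.5 there were 5403 higher and 876 lower. Leaving out 1 retinal array at a time gave 1829 to 1929 higher and 141 to 188 lower genes, and the 141 came without RMV replicate 6. The remaining filter, cluster and model settings stayed within 1.5 times of both counts. The count of 42 neuronal genes with a higher change in retina than in brain was 39 to 42 under all alternatives run. The share of genes of highest signal common to RMVs and RT was 67.0% at 100 genes and 62.0% at 50. With the replicate block there were 1873 higher and 172 lower genes, and no named gene changed its call. As each block holds an RMV and an RT array, it leaves every fold change as it was and can alter only p-values. These equal counts therefore do not show whether pairing matters. The labels do not say that a number marks an animal, and same-numbered RMV and RT arrays correlated in their deviations at 0.0355 to 0.1497, 5 of 6 best with their own number, a hint from the data only.

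Of 294 genes followed singly, not all of which are printed, 172 were called. Quantile normalization ended the call of 22 and gave a call to 17, centring ended 34 (Vim, Mertk and Epas1 among them) and gave 51, and leaving out single arrays ended 9 and gave 6, while none reversed. The median of the ribosomal list, set against the median gene, changed sign after quantile normalization (-0.05 and 0.27), and so did that of skeletal muscle genes (0.14 and -0.02). Leaving out the replicate 5 arrays of both groups was chosen after seeing the data. The method of normalization before deposit is unknown here, so the shift between RMVs and RT may be part of it or of the samples, which cannot be told apart. Signal over background of single probes was not analysed here.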

Other observations

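Further lists gave few calls in RMVs against RT. Of 5 horizontal cell genes, 1 fell (Calb1, a calcium buffer, by 1.35) and 0 rose. Of 19 cell cycle genes, 1 rose (Ccna2, a cyclin of DNA replication, by 1.15) and 0 fell, and its call was lost after quantile normalization and with centring. Of 14 skeletal muscle genes, 1 rose (Myl1, a myosin light chain, by 1.09) and 0 fell. The call of Myl1 was lost after quantile normalization, with centring and without RT replicate 2, and under both scalings 1 other gene was lower.

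Genes used as references in expression studies differed among themselves. B2m rose by 2.28. Actb, the cytoskeletal β-actin, had signals of 8.60, 8.79 and 8.91 (lowest, median and highest) in RMVs and 7.71, 7.79 and 7.90 in RT, a change of 0.98 just below the threshold, without overlap. Hprt1, of purine salvage, had 10.08, 10.28 and 10.39 in RMVs and 10.62, 10.68 and 10.98 in RT, a change of -0.48.

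Of the 172 genes called lower in RMVs, 138 were also called lower in BMVs against BT and 34 were not. Of all genes, 1903 (10.5%) were called lower in BMVs. The difference between both changes was called, in either direction, in 81 of the 138. Over all genes it was called positive for 10.4% and negative for 5.15%.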
